A study of Mus musculus with 5 samples.

Results

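The transcripts described here encode 7 surface markers by which mouse hematopoietic stem cells (HSCs) are sorted, namely Kit, Ly6a, Slamf1, Cd48, Procr, Cd34 and Flt3. They were chosen by name, are 7 of the 24046 genes in the deposited table, and all 7 passed the filter on low values. Proteins of 4 of them set the gate of this experiment. These are c-Kit (Kit), Sca1 (Ly6a) and CD150 (Slamf1), for which the sorted cells were positive, and CD48 (Cd48), for which they were negative. EPCR (Procr), CD34 (Cd34) and FLT3 (Flt3) serve in other gates for HSCs and were not part of this one.

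The study compared HSCs that lack the RNA-binding protein SYNCRIP with HSCs that retain it by bulk RNA-seq. WT cells were Syncrip flox/flox, Mx1 Cre-, with 3 libraries (WT 1, WT 2 and WT 3), and KO cells were Syncrip flox/flox, Mx1 Cre+, with 2 libraries (KO 2 and KO 3), so that the Cre transgene and the deletion cannot be told apart. Donor marrow came from mice 6 to 8 weeks old and was placed in irradiated CD45.1 recipients. Both groups received polyinosinic:polycytidylic acid (pIpC), which induces interferon and thereby the Mx1 promoter that drives Cre, a promoter active in many cell types but carried here by donor cells. HSCs were sorted 9 weeks after transplantation and 3 weeks after pIpC as CD45.2+, Lin-, Sca1+, cKit+, CD150+, CD48- cells. Nothing in the labels says whether a library held the cells of 1 recipient or of several.

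Cell surface markers resolve the blood-forming hierarchy of mouse marrow. c-Kit is the receptor tyrosine kinase for stem cell factor, and with the GPI-anchored protein Sca1 it marks the immature lineage-negative cells. CD150 and CD48 belong to the SLAM family of immune receptors, in which CD150 is kept on HSCs while CD48 appears as multipotent progenitors form. EPCR binds protein C and is high on HSCs, the sialomucin CD34 is low on long-term HSCs of adult mice, and the receptor kinase FLT3 comes up on lymphoid-primed progenitors. A gate reads protein on single cells, whereas the values below are transcript levels of a sorted population. In such bulk samples, fewer cells that express a gene and less of its RNA per cell cannot be told apart.

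Depth ran from 12539599 to 22779536 reads per library, and both KO libraries were shallower than each WT library. Syncrip fell from 1726 ± 259 (SD, n = 3) to 319 ± 34.8 normalised reads (SD, n = 2), a log2 difference of -2.43 (limma adjusted p = 0.0352). The gene level count does not isolate the deleted exons 3 and 4. All 14 genes of a list that defines HSCs were detected in each library. Genes of the lineage antibodies were mixed. Cd3e, Cd3g, Cd8a and Cd8b1 had at most 6.66 normalised reads in any library, while Ly6c2 reached 14255 in WT 3. Ptprc encodes CD45, by which donor cells were gated and of which the B220 antibody sees an isoform. It stood at 4635, 3735 and 4550 in WT and at 2010 and 1271 in KO, with both KO libraries below all WT libraries (log2 difference -1.42, limma adjusted p = 0.0815; DESeq2 adjusted p = 1.74e-05, called lower). Genes of neutrophils and monocytes took 6.49% to 7.83% of the reads in WT, 5.71% in KO 2 and 2.74% in KO 3, with Ngp as the highest (355453 in WT 3).

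Cd48 and Slamf1 stand on opposite sides of the gate and are neighbours in the genome, and their promoters are shown for that reason. Cd48 lies on chromosome 1 from 171682009 to 171705258 and Slamf1 from 171767127 to 171801184, both on the plus strand of GRCm38 (GENCODE M21). A stretch of 61869 bases separates them, with 5 annotated genes between and none of those protein-coding. The RefSeq promoters (GRCm38.p6, plus strand, 250 bases before to 50 after the start) span chr1:171681742-171682041 for Cd48 and chr1:171766882-171767181 for Slamf1. Capitals mark a match on either strand to 1 of 4 motifs, CCGGAAGT of ETS factors, AGATAA of GATA factors, TGTGGT of RUNX factors and GAAA, any 2 bases and GAAA of interferon regulatory factors.
Cd48: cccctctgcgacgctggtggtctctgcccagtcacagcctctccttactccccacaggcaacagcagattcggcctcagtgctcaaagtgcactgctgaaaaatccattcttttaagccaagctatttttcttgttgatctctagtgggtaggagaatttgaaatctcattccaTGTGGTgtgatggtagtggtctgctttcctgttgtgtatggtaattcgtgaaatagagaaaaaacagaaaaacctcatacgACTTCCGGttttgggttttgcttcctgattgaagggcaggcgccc
Slamf1: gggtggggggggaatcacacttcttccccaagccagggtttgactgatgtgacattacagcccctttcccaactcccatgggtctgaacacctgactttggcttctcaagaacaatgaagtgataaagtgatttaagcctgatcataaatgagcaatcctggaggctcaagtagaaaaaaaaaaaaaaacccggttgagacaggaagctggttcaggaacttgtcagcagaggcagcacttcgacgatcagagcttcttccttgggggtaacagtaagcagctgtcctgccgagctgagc

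The Cd48 promoter held 1 RUNX match and 1 ETS match, the latter read on the minus strand. The Slamf1 promoter held none, and neither did those of Kit, Procr, Cd34 and Flt3; Ly6a was not analysed here. Of 32851 mouse promoters of this length, 16.76% held the RUNX motif, 3.887% the ETS motif, 11.18% the GATA motif and 3.443% the interferon regulatory factor motif. A match describes these letters only, and the 2 matches in the Cd48 promoter do not overlap.

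Whether the gate markers differed between KO and WT was tested first for the lineage-negative Sca1+ c-Kit+ pair. The normalised read counts of Kit were 9916 (WT 1), 10741 (WT 2) and 8119 (WT 3) without Cre and 8007 (KO 2) and 10259 (KO 3) with it. The groups overlapped, since KO 2 lay just below the lowest WT library and KO 3 between the upper WT libraries. The log2 fold change of Kit was -0.07 with a 95% interval from -0.52 to 0.38 (SE 0.20, limma adjusted p = 0.831), and its sign turned in 4 of 19 alternatives. Kit lies on chromosome 5 from 75574916 to 75656722 (plus strand) and had the most reads of the 7 genes in every library.

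For Ly6a the WT libraries gave 857 (WT 1), 298 (WT 2) and 279 (WT 3) normalised reads, and the KO libraries gave 703 (KO 2) and 670 (KO 3). Both KO libraries lay between WT 1 and the other WT libraries, and they differed from each other by 1.05-fold. The KO mean was 686 ± 23.6 (SD, n = 2) and the WT mean 478 ± 329 (SD, n = 3). The log2 fold change was 0.73 (SE 0.46, 95% interval -0.32 to 1.77, limma adjusted p = 0.324). Its size rested on which WT libraries were kept, at 1.25 without WT 1 (adjusted p = 0.209), 0.49 without WT 2 (adjusted p = 0.577) and 0.44 without WT 3 (adjusted p = 0.643). Ly6a (chromosome 15, 74994877 to 74998031, minus strand) is the member most open to shared reads, as 18.97% of its 50-base words also occur in Ly6c1, Ly6c2, Ly6i or I830127L07Rik, and reads of such copies may have been split or dropped.

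**Figure D1:**
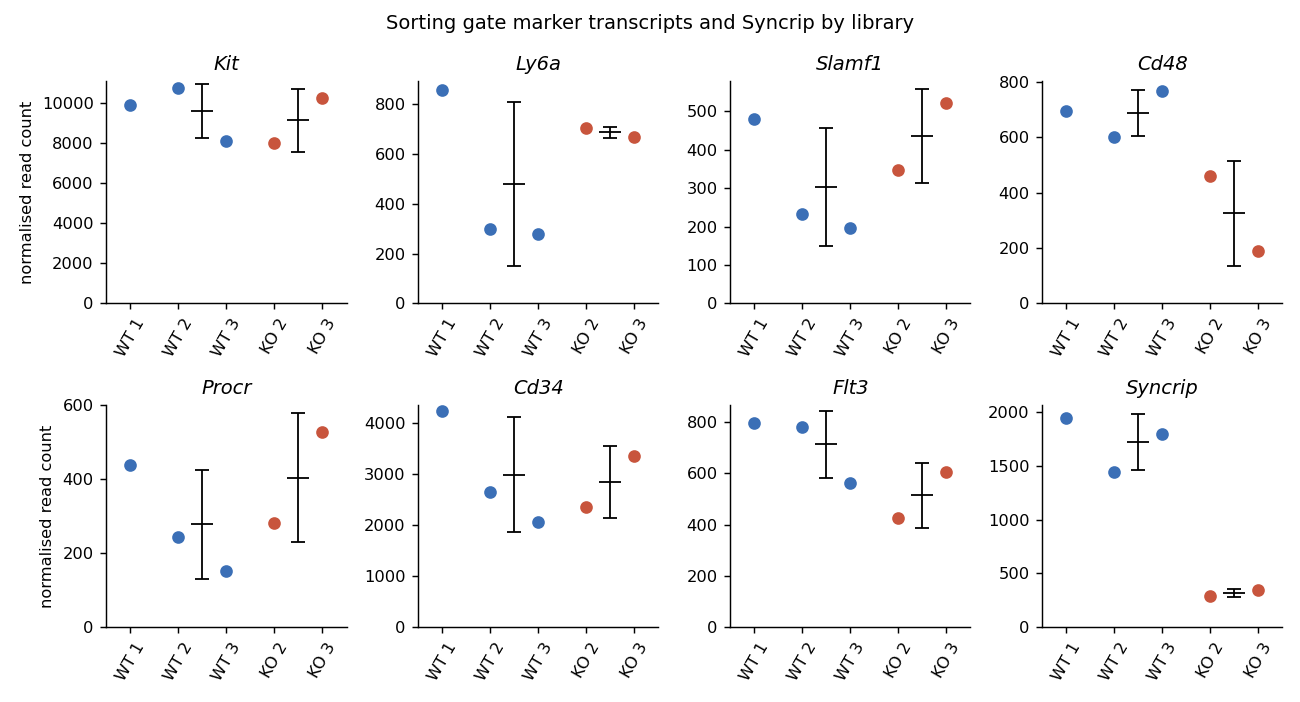
Normalised read count of each gate marker and of Syncrip in the 3 WT (blue) and 2 KO (red) libraries, with the axis of each panel starting at 0; black dashes and bars give the group mean and SD. The KO points of Cd48 (459 and 191) lie below all WT points, WT 1 is the highest WT library for Ly6a, Slamf1, Procr and Cd34, and the KO points of Kit fall among or beside the WT points.

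The SLAM pair gave estimates of opposite sign, and Cd48 was the member with the clearest separation. Its normalised read counts were 696 (WT 1), 601 (WT 2) and 768 (WT 3) with SYNCRIP present, and 459 (KO 2) and 191 (KO 3) after its deletion. The groups did not overlap, with both KO values below all WT values and KO 3 farther down than KO 2. The WT mean was 688 ± 83.9 (SD, n = 3), of which KO 2 retained 66.8% and KO 3 27.8%. KO 3 rested on 126 reads, and its 95% exact Poisson interval of 159 to 228 normalised reads, which covers counting error only, stayed below that of KO 2 (418 to 504).

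For Cd48 the log2 fold change was -1.20 (SE 0.36), with a 95% interval from -2.04 to -0.37 before adjustment over genes. limma did not call it (adjusted p = 0.0960), whereas DESeq2 on the recovered reads called it lower (-1.08, adjusted p = 0.0362). edgeR left it uncalled (adjusted p = 0.122). KO 3 carried most of the difference. Without KO 2 the log2 fold change was -1.83 (limma adjusted p = 0.00414), and without KO 3 it was -0.57 (limma adjusted p = 0.352), each with a lone KO library taken to vary like WT. Removal of a trend on transcript length and GC content left -0.55 (limma adjusted p = 0.309). Across 19 alternatives the adjusted p of Cd48 lay between 0.00414 and 0.446.

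Summed genes of neutrophils and monocytes were lower in both KO libraries, as Cd48 was. The adipocyte, erythroid, megakaryocyte, lymphoid and stromal lists, given below, did not share this order. The summed share of reads of 15 neutrophil and monocyte genes was 6.49%, 7.18% and 7.83% in the WT libraries, 5.71% in KO 2 and 2.74% in KO 3, which is the same order of groups as for Cd48. Among the 15, 8 had both KO libraries below all WT libraries, beside 23.2% of all genes tested, and none had both above, beside 23.9%. In the remaining 7 the groups overlapped. The part of these cells in the Cd48 values was not tested.

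Slamf1 had 480 (WT 1), 233 (WT 2) and 195 (WT 3) normalised reads in the controls, beside 348 (KO 2) and 522 (KO 3) in the knockouts. KO 3 lay above all WT libraries, KO 2 did not, and WT 1 reached nearly the level of KO 3. The log2 fold change was 0.61 (SE 0.41, 95% interval -0.34 to 1.55, limma adjusted p = 0.360). It was 1.00 without WT 1, 0.35 without WT 3 and 0.32 without KO 3, and it was above 0 in all 19 alternatives (0.32 to 1.36) with an adjusted p of 0.194 or more in each.

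The markers outside the gate gave no call either. Procr (chromosome 2, 155751117 to 155755471, plus strand) had 439 (WT 1), 243 (WT 2) and 152 (WT 3) normalised reads, and 281 (KO 2) and 527 (KO 3) without SYNCRIP. As for Slamf1, only KO 3 lay above all WT libraries. The log2 fold change was 0.60 (SE 0.47, 95% interval -0.47 to 1.68, limma adjusted p = 0.422), with 0.15 for KO 2 and 1.06 for KO 3 against the WT mean. It was 1.00 without WT 1 and 0.24 without WT 3.

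Cd34 (chromosome 1, 194938819 to 194961279, plus strand) had 4242 (WT 1), 2651 (WT 2) and 2070 (WT 3) normalised reads, and 2349 (KO 2) and 3349 (KO 3) without SYNCRIP. The KO values fell within the range of WT. The log2 fold change was -0.03 (SE 0.30, 95% interval -0.72 to 0.67, limma adjusted p = 0.963), and its sign turned in 7 of 19 alternatives. An antisense gene, Gm16897, shares 148 exon bases with Cd34, and since the use of strand is not given in the sources used here, reads of the pair could not be told apart there.

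Flt3 (chromosome 5, 147330741 to 147400489, minus strand) had 796 (WT 1), 783 (WT 2) and 562 (WT 3) normalised reads, and 425 (KO 2) and 604 (KO 3) without SYNCRIP. KO 2 lay below all WT libraries and KO 3 just above WT 3. The log2 fold change was -0.48 (SE 0.27, 95% interval -1.08 to 0.13, limma adjusted p = 0.272). It was below 0 in all 19 alternatives, from -0.73 to -0.22, with an adjusted p of 0.237 or more in each.

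**Figure D2:**
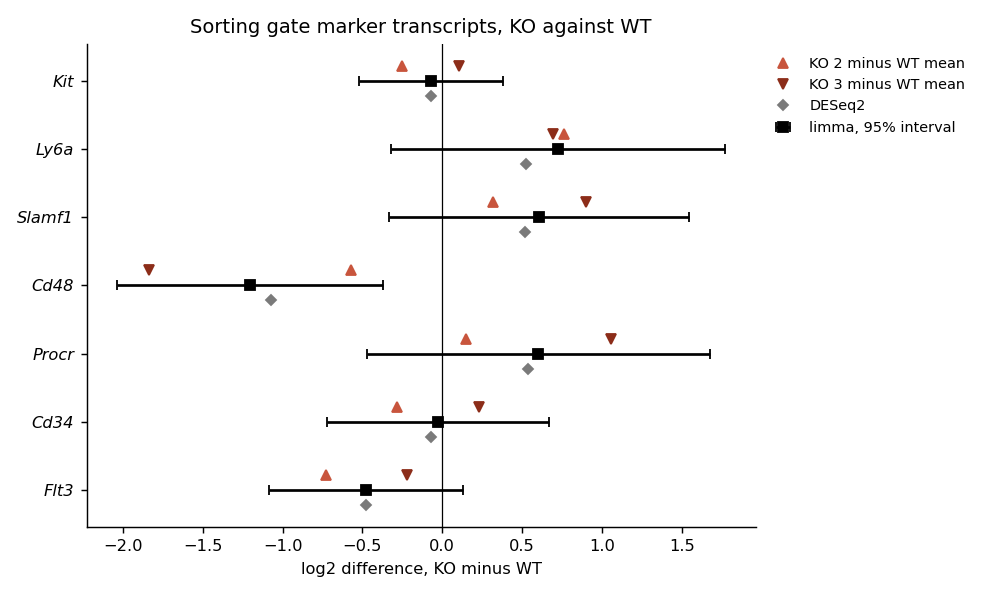
Log2 difference, KO minus WT, of each gate marker. Black squares and bars are the limma estimate with its 95% interval, triangles give KO 2 and KO 3 against the WT mean, and diamonds give DESeq2; the interval of Cd48 alone leaves out 0, while KO 2 and KO 3 fall on opposite sides of 0 for Kit and Cd34.

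Read over all 7 genes, limma called none at an adjusted p under 0.05, where it called 0.00732% of the 13661 genes tested. At an adjusted p under 0.1 limma had 1 of 7 (Cd48, lower), beside 11.2% of all genes, 6.47% being lower. DESeq2 called 1 of the 7 (Cd48), beside 19.3% of the 11837 genes for which it gave an adjusted p, 9.81% being lower. edgeR called none of the 7, beside 0.0146%, and limma without KO 2 called 1 (Cd48), beside 26.6%. At an unadjusted p under 0.05 limma had 1 of 7 (Cd48), beside 27.8% of all genes. Only Cd48 had both KO libraries below all WT libraries, as did 23.2% of all genes tested, and none of the 7 had both above, as did 23.9%. In either direction 1 of the 7 was thus separated, beside 47.1% of all genes tested. The median log2 fold change of the 7 was -0.03, beside 0.02 for all genes tested.

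How far the markers spread within WT was compared next, because that spread sets what 2 KO libraries can show. The highest WT library exceeded the lowest 3.08-fold for Ly6a, 2.89-fold for Procr, 2.46-fold for Slamf1 and 2.05-fold for Cd34. For Flt3 the ratio was 1.42, for Kit 1.32 and for Cd48 1.28. The median over 10547 tested genes of comparable abundance, with a mean of at least 100 and no WT value of 0, was 1.31. Ly6a, Procr, Slamf1 and Cd34 spread more than 98.2%, 97.9%, 96.5% and 93.2% of those genes, Cd48 more than 44.4%.

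WT 1 was the high library in each of the 4 widely spread genes. It stood above the mean of WT 2 and WT 3 by 1.57 for Ly6a, 1.19 for Procr, 1.17 for Slamf1 and 0.86 for Cd34 on the log2 scale, beside a median of 0.02 over all genes tested. The 14 genes that define HSCs, of which 4 are members, had a median of 0.93 on the same measure. KO against WT, the median log2 fold change of these 14 was 0.60, at 0.14 in KO 2 and 1.07 in KO 3. Both KO libraries lay above all WT libraries for 2 of the 14 (23.9% of all genes did) and below for none (23.2%). Set against WT 2 and WT 3 alone, the KO mean was 2.38-fold for Ly6a, 2.05-fold for Procr, 2.03-fold for Slamf1 and 1.21-fold for Cd34, on the scale of normalised reads. WT 1 was left out there after its values were seen, and without it limma called 0 of the 7 genes and 0 of all genes (2852 at an unadjusted p under 0.05).

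To set the 7 genes beside one another, their values were divided by the length of the longest coding transcript, which is 5.241 kb for Kit and 0.955 kb for Ly6a at the extremes. In WT the level per kb was 1830 ± 256 for Kit, 1170 ± 440 for Cd34, 580 ± 70.7 for Cd48, 500 ± 344 for Ly6a, 195 ± 35.9 for Flt3, 174 ± 91.8 for Procr and 113 ± 57.4 for Slamf1 (SD, n = 3). The WT ranges of Kit and Cd34 overlapped, as did those of Cd48 and Ly6a, of Flt3 and Procr, and of Procr and Slamf1. Cd34 lay above Cd48, and Ly6a above Flt3, with no overlap. Within libraries, Kit exceeded Cd34 and Procr exceeded Slamf1 in 5 of 5, while Cd48 exceeded Ly6a, and Flt3 exceeded Procr, in 2 of 5.

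Cd48, against whose protein the cells were gated, thus had more transcript per kb in WT than Slamf1, for whose protein they were selected. Per kb, Cd48 stood at 587, 506 and 647 in WT 1, WT 2 and WT 3, and Slamf1 at 178, 86.7 and 72.6. In KO 2 the level of Cd48 was 387 and that of Slamf1 129. KO 3 had 161 for Cd48 and 194 for Slamf1, but this order turned with the length used, as Slamf1 stood at 118 with the longest transcript of any kind and at 84.9 over the union of exons, each below Cd48 (161 with both lengths). The length also changed other places in the order, since over the union of all exons Cd48 (579 per kb) came above Cd34 (410 per kb) in WT, while Kit (1076) stayed the highest and Slamf1 (49.2) the lowest.

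**Figure D3:**
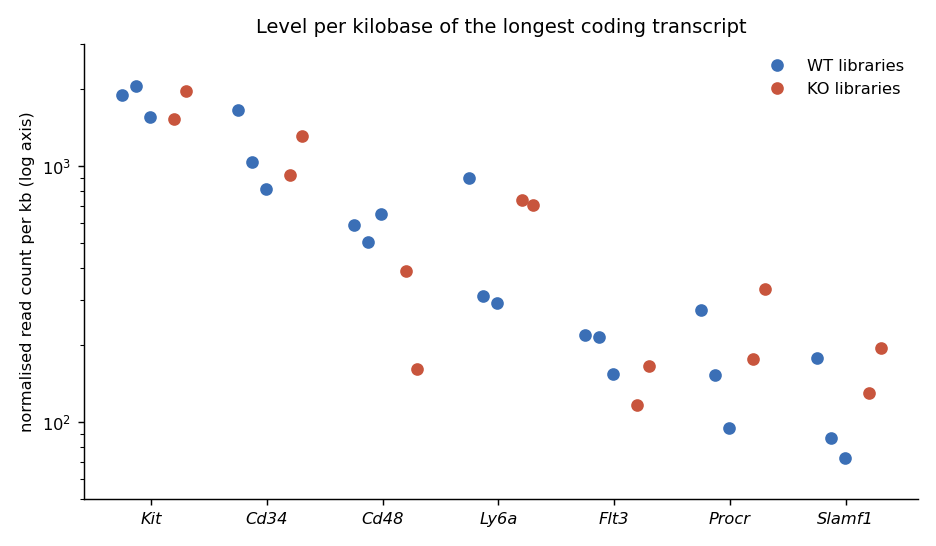
Normalised read count per kb of the longest coding transcript (log axis) for each gate marker in the 3 WT (blue) and 2 KO (red) libraries, with genes ordered by their WT mean. Kit and Cd34 lead, Slamf1 is lowest in WT at 113 per kb, and the KO points of Cd48 lie at 387 and 161, below its WT points.

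Ratios of 2 markers within a library do not depend on the scaling of that library, and 3 pairs were formed. Slamf1 over Cd48, in normalised reads, was 0.690 (WT 1), 0.389 (WT 2) and 0.254 (WT 3) in the controls and 0.758 (KO 2) and 2.73 (KO 3) in the knockouts. The KO libraries lay above WT, though KO 2 only just above WT 1. On the log2 scale with a pseudocount of 1, the KO mean was 0.52 ± 1.30 (SD, n = 2) and the WT mean -1.29 ± 0.72 (SD, n = 3), a difference of 1.81, which was 0.89 without KO 3 and 2.73 without KO 2.

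Procr over Cd34 gave a smaller difference between the group means. The ratio was 0.103, 0.0917 and 0.0733 in the WT libraries, 0.119 in KO 2 and 0.157 in KO 3. The log2 difference between the means was 0.63 (-2.86 ± 0.28 in KO, -3.49 ± 0.25 in WT), although neither gene had a KO range outside WT.

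Kit over Flt3 was the steadiest pair. It was 12.5, 13.7 and 14.4 in the WT libraries, 18.9 in KO 2 and 17.0 in KO 3. The log2 difference was 0.40 (4.16 ± 0.11 in KO, 3.75 ± 0.11 in WT) and ranged from 0.33 to 0.48 when any 1 library was left out. These pairs were picked with earlier results of the data known and carry no test. How many other gene pairs separate in this way was not computed, while 47.1% of single genes tested did.

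**Figure D4:**
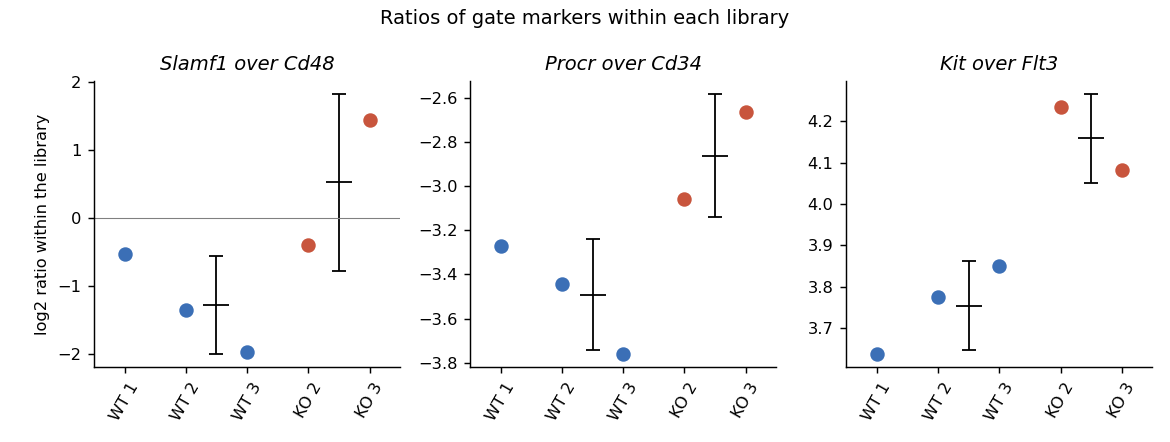
Log2 ratio within each library for 3 pairs of gate markers, each panel with an axis range of its own; blue points are WT, red points KO, and black dashes and bars give the group mean and SD. In each panel both KO points lie above all WT points, and KO 3 is the only library above 0 for Slamf1 over Cd48.

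Genes with the most similar pattern to each member over the 5 libraries were looked up among 10550 genes, with Pearson's r of log2 values as the measure. With 5 points, such r values are a description only. For Cd48 they were Tgoln1 (r = 0.9999) and Serpinb1a (r = 0.9996), and 1053 genes (9.98%) had an r above 0.95 with it. For Slamf1 they were Tmem176b (r = 0.999) and Ctsw (r = 0.996), with 75 genes above 0.95, and for Procr they were Ctsf (r = 0.999) and Tmem237 (r = 0.998), with 122. For Ly6a they were 4931406C07Rik (r = 0.993) and Tyw3 (r = 0.992), for Cd34 Paqr8 (r = 0.999) and Epsti1 (r = 0.995), for Kit Tet1 (r = 0.998) and Itga6 (r = 0.991), and for Flt3 Ddx46 (r = 0.994) and Zfp451 (r = 0.992), with 22 to 30 genes above 0.95 for each of these 4 members.

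Serpinb1a, whose product inhibits neutrophil proteases, stood at 12935, 11010 and 14794 in the WT libraries, 7679 in KO 2 and 2257 in KO 3. Among the members themselves, Slamf1 and Procr were the closest pair (r = 0.97), followed by Ly6a and Slamf1 (r = 0.925). Cd48 had a negative r with Ly6a, Slamf1, Procr, Cd34 and Kit (-0.67 to -0.25) and a positive one with Flt3 (r = 0.24).

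Genes related to the members by family, pathway or use were then read from the same fit, as 8 lists with the members removed. The table held 115 such genes, of which 94 were tested, and limma called none of them. At an unadjusted p under 0.05 there were 31 (33.0%, beside 27.8% of all genes). DESeq2 called 22 of the 82 to which it gave an adjusted p, beside 19.3% of all genes. Values of both KO libraries exceeded all WT values for 13 of the 94, beside 23.9% of all genes, and fell short of them for 24, beside 23.2%. Counts of non-overlapping genes in each list below are to be read against the same shares.

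The SLAM family and its adaptors had 8 of 10 genes tested, and their median log2 fold change was -0.70. In 4 of the 8 both KO libraries lay below all WT libraries (23.2% of all genes did), and in none above (23.9% of all genes). Cd84, a self-binding SLAM receptor, stood at 953, 829 and 704 in WT and at 392 and 372 in KO (-1.10 on the log2 scale, SE 0.23, limma adjusted p = 0.0815; DESeq2 adjusted p = 6.96e-04, called lower). Cd244, the receptor of CD48, stood at 154, 152 and 114 in WT and at 66.8 and 44.0 in KO (-1.34, SE 0.41, limma adjusted p = 0.0993; DESeq2 adjusted p = 0.0331, called lower). Ly9 overlapped between groups (-0.08).

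In the Ly6 family 6 of 18 measured genes passed the filter. In 2 of the 6 both KO libraries lay below WT, and neither limma nor DESeq2 called any. Ly6e had a log2 fold change of -0.08 and Ly6c1, at 157 or less in each library, of 0.56. Ly6c2, an antigen of the Gr1 antibody in the lineage panel, stood at 10560, 10705 and 14255 in WT, 9732 in KO 2 and 3578 in KO 3 (-0.99, SE 0.37, limma adjusted p = 0.134).

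Among the class III receptor kinases and their ligands, the family of c-Kit and FLT3, 5 of 9 were tested. Csf1r, the receptor for macrophage colony stimulating factor, stood at 683, 1135 and 785 in WT and at 353 and 454 in KO (-1.08, SE 0.28, limma adjusted p = 0.0820; called lower by DESeq2). Flt3l, the ligand of FLT3, had 0.44 and Csf1 -0.18, both with overlapping groups. Pdgfb, named after its values were seen, was the other gene DESeq2 called, at 74.0 and 240 in KO against at most 57.3 in WT. Kitl, which encodes the ligand of c-Kit, was at 0 in 3 of the 5 libraries and at most at 19.96, and was not tested.

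Signalling genes downstream of c-Kit and FLT3 numbered 32, all tested, with a median log2 fold change of -0.01. Of the 32, 7 had both KO libraries above all WT libraries and 6 had both below. DESeq2 called 3 higher and 3 lower. Akt1 stood at 7298, 9410 and 7625 in WT and at 10070 and 13702 in KO (0.54, SE 0.20, limma adjusted p = 0.134). The phosphatase gene Ptpn6 (-0.01) and the kinase gene Fes (-0.01) were near 0.

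Around EPCR, 10 of 12 genes of protein C and thrombin signalling were tested, with a median of -0.05. F2r, the main thrombin receptor gene, had 0.14, F10 had -0.50 and F2rl3 had 1.21 (SE 0.52, limma adjusted p = 0.176; DESeq2 adjusted p = 0.0486, called higher). F2rl3 was decided by KO 3, at 1640 against 534 in KO 2 and 228 to 550 in WT. DESeq2 also called Tfpi lower, singled out after its values were seen, at 38.0 and 51.6 in KO against 207 to 333 in WT. Proc, which encodes protein C, was at 0 in all libraries.

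For CD34, its relatives and the selectins that bind them, 7 of 7 genes were tested, with a median of 0.06. Selplg, the gene of the P-selectin ligand, had 0.23 and Selp 0.06, and their groups overlapped.

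The last lists were surface genes used for HSCs and for progenitors. The HSC list had 15 of 16 genes tested, with a median of 0.47 that came to 0.04 in KO 2 and 0.93 in KO 3. Cd81 stood above WT in both KO libraries (0.32, SE 0.16, limma adjusted p = 0.224), Itga2b at 9285 in KO 3 but 3158 in KO 2, within the WT range, and Cd9 below WT in both (-0.57, SE 0.17, limma adjusted p = 0.0992). DESeq2 called Cd9 lower and Eng, named after its values were seen, higher.

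All 13 progenitor genes were tested, and their median log2 fold change was -1.22, at -0.57 in KO 2 and -1.86 in KO 3. Like Cd48, 7 of them had both KO libraries below all WT libraries, beside 23.2% of all genes, and DESeq2 called those 7 lower, beside 9.81%. The 15 neutrophil and monocyte genes had a median of -1.20 (-0.51 in KO 2 and -1.71 in KO 3), with 8 below all WT libraries and 7 called lower by DESeq2; Csf1r and Fcgr3 are in both lists, and the part of such cells in the progenitor values was not tested. Itgam, the myeloid integrin CD11b, stood at 7074, 10792 and 11353 in WT, 5158 in KO 2 and 2313 in KO 3 (-1.46, SE 0.34, limma adjusted p = 0.0815). Csf3r (-0.59) and Csf2ra (0.17) overlapped between groups. Crlf2, named after its values were seen, was the gene DESeq2 called higher, with 1790 in KO 2 and 4892 in KO 3 against at most 1350 in WT.

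**Figure D5:**
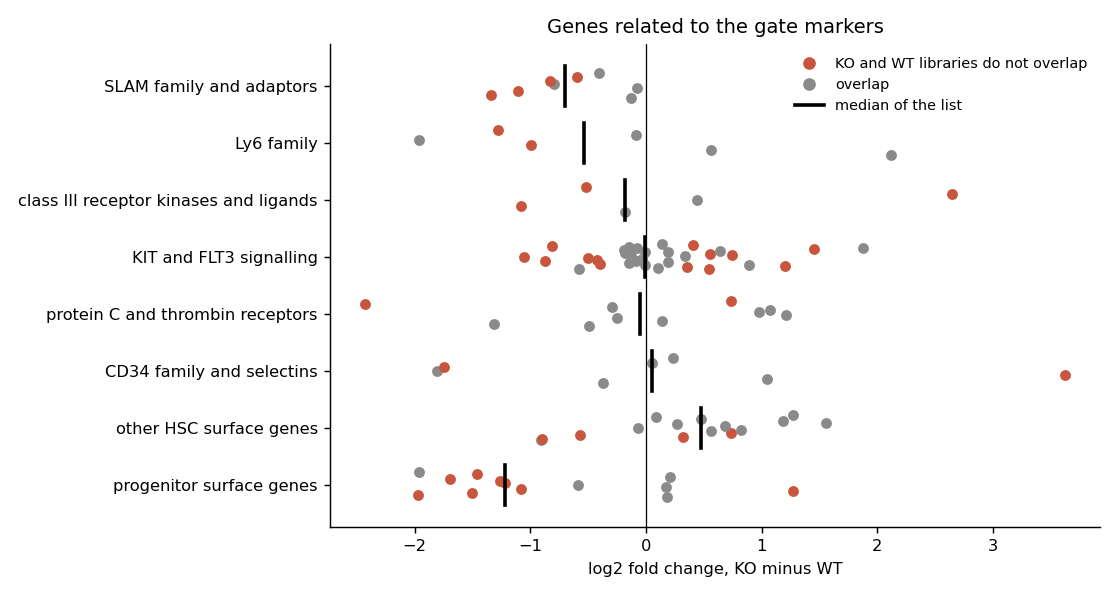
Log2 fold change, KO minus WT, of tested genes in 8 lists related to the gate markers, with the 7 markers removed. Red points are genes whose KO and WT libraries do not overlap, grey points overlap, and black lines are list medians, which run from -1.22 for progenitor surface genes to 0.47 for other HSC surface genes.

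Lists of other cells and of the interferon response were read beside the members. Adipocyte genes took 0.213% of the reads in KO 2 and 0.0175% to 0.0235% elsewhere, with Fabp4 at 7687 in KO 2. Megakaryocyte and platelet genes took 0.0491% to 0.0813% in WT, 0.0841% in KO 2 and 0.207% in KO 3, and both KO libraries lay above WT for 7 of the 12, the highest value being that of Itga2b. Erythroid genes took 0.170% to 0.241% in WT, 0.178% in KO 2 and 0.110% in KO 3 (Car1 at most 24050, in WT 3). Lymphoid genes took 0.0304% to 0.0519% (Nkg7 at most 9010, in KO 2), and stroma and endothelium genes 0.00751% to 0.0337% (Vcam1 at most 3682, in WT 3).

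Since Sca1 is an interferon-inducible protein and pIpC was given to both groups, 20 interferon response genes were set beside Ly6a. Their median log2 fold change was -0.18, against 0.73 for Ly6a. Of the 20, 2 had both KO libraries above all WT libraries and 5 had both below, and limma called none. DESeq2 called 3, of which 1 was higher and 2 were lower, beside 19.3% of all genes. In WT 1, where Ly6a was 1.57 above the other WT libraries on the log2 scale, the interferon genes were 0.33 above them in the median. The part of these cells and responses in the members' values was not tested.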

How the data were processed

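Bulk RNA-seq libraries of sorted HSCs were made from TRIzol extracts with a low-input SMART-Seq kit, per the labels. The submitters' processing notes name STAR, featureCounts, DESeq2 and the build mm10 without versions; annotation and strand setting are not given in the sources used here. The authors deposited a signal table of read counts divided by a size factor per library, and 1 read was worth 0.833 to 1.52. Division by this unit turned 100% of the positive values into whole reads (tolerance 0.01), 12539599 to 22779536 per library. A second deposited table holds the authors' own comparison (log2 fold changes and p-values) and was not used.

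Members and gene lists were chosen with earlier results of these data known. Groups came from the labels, which do not say that libraries came from separate animals, so p-values measure the spread between these libraries. Every pair of libraries differed beyond sampling noise (chi-square over degrees of freedom of at least 34.15). Genes that reached a value of 10 in 2 or more libraries (13661) were tested with limma 3.58.1 (lmFit, eBayes with trend) on log2(value + 1) in R 4.3.3, two-sided, with Benjamini-Hochberg adjustment over all of them and calls at an adjusted p under 0.05. Fold changes are on that scale, which understates changes of low genes. Scripts were tested on simulated data. edgeR 4.0.16 (quasi-likelihood) and DESeq2 1.42.0 were run on the recovered reads. Intervals of counts are exact Poisson at 95%, and cover counting error only, as no molecular identifiers were used. Coordinates and lengths are of GENCODE M21 (GRCm38) by symbol. Level per kb uses the longest protein-coding transcript, chosen after the longest models of Slamf1, Cd34 and Flt3 proved to hold retained introns. Of the listed symbols, 2 had no row (Ly6g and Ahsp).

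Named were the 7 members and Syncrip, from each related list the genes passing the adjusted p, or failing those the 3 with the highest mean value, from each marker list of other cells the gene with the highest value, and for each member the 2 genes most like it among tested genes with a mean of at least 100. Some genes that these rules name are not reported here. Alternatives changed the pseudocount, low-value filter, scaling, variance model or tool, or added a replicate block, a length and GC correction (13015 genes matched) or the removal of 1 library.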

Additional observations from a re-analysis of the deposited data

How the results depend on the processing

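The count of all genes called, 1 with limma, was 2 with a pseudocount of 10, 2 with edgeR, 2290 with DESeq2 and 1534 at an adjusted p under 0.1. limma-voom gave 0 (3517 genes at an unadjusted p under 0.05), as did array weights (3328), the fit of all genes (3963) and the removal of the length and GC trend (2090). Leaving out 1 library gave 0 to 3560, the highest without KO 2. Calls among the 7 members, 0 with limma, were 1 with DESeq2, 1 at an adjusted p under 0.1 and 0 to 1 when 1 library was left out; in each case the gene was Cd48. Related genes called, 0 with limma, were 22 with DESeq2 and 0 to 36 when 1 library was left out, the highest without KO 2. The cause was not tested.

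WT and KO libraries share the numbers 2 and 3 in the labels, and nothing says that a number marks a pair. Deviations from the group means of same-numbered libraries correlated at -0.06 and -0.18. With 2 KO libraries, the deviations of KO 2 and KO 3 mirror each other by construction, so these correlations cannot decide whether the numbers mark pairs. With the number as a replicate block 6 genes were called, or 4 if the length and GC correction was added, and no member was called in either. WT 1 alone bears the number 1, so the block takes it out of the comparison. Cd34, for example, had 0.26 both with the block and without WT 1.

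The sign of Cd34 (-0.03) turned to 0.00027 with upper-quartile scaling, 0.11 with array weights, 0.26 with the replicate block, 0.081 with the length and GC trend removed and 0.35 with both, and it lay between -0.28 and 0.26 when 1 library was left out. The sign of Kit (-0.07) turned to 0.044 with the length and GC trend removed and 0.083 with the replicate block as well, and it lay between -0.25 and 0.11 when 1 library was left out. Ly6a, Slamf1, Cd48, Procr and Flt3 kept their sign in all 19 alternatives. The 19 are not separate checks. Changes of the low-value filter leave an estimate as it is (Slamf1 at 0.61), and the replicate block repeats the estimate without WT 1 (Ly6a at 1.25). Syncrip was lower in all 19 and lost its call in 8, at -2.55 to -2.34 in 6 of them and at -1.47 and -1.42 in the 2 fits with the length and GC correction. The length and GC trend moved Slamf1 to 1.01 and Cd48 to -0.55. With 2 KO libraries, the width of the members' intervals comes from the spread between libraries rather than from counting error, since each member had at least 126 reads in each library.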
